A study of Rattus norvegicus with 8 samples.

Results

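The genes described here are 8 genes that mark tenocytes, the resident fibroblasts of tendon, or the fibroblast and progenitor cells around them. They were found by symbol in a table of 15590 genes measured in rat Achilles tendon, and all 8 had a row. They comprise the transcription factors *Scx* (ENSRNOG00000021812), *Mkx* (ENSRNOG00000018938) and *Six2* (ENSRNOG00000058827), the tenocyte membrane glycoprotein *Tnmd* (ENSRNOG00000060970), the matrix protein *Tgfbi* (ENSRNOG00000012216), and the cell surface molecules *Pdgfra* (ENSRNOG00000002244), *Cd34* (ENSRNOG00000045558) and *Ly6c* (ENSRNOG00000061813). Their levels were compared between tendons taken right after a single bout of running and tendons of rats that did not run.

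The rats were wild-type male Sprague-Dawley animals of 8 to 10 weeks. In the 0 h p.r. (post-run) group (4 libraries), rats ran uphill on a treadmill for 1 h and were killed at once. In the NC (naïve control) group (4 libraries), rats kept their normal activity. The treatment protocol in the sample labels states that control rats were also killed immediately, whereas the design given in the study places their killing together with rats at 12 h p.r., so the effect of running cannot be told apart from that of the hour of sampling. Tissue of right Achilles tendons was taken, and polyadenylated RNA was sequenced. The sources used here do not say that each library came from a separate rat, so p-values measure the spread between these libraries, which may be technical in part. Because bulk tissue was used, fewer cells of a type and less RNA per cell cannot be told apart in any of the values below.

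Tendon cells arise from progenitors that express *Scx*, a basic helix-loop-helix (bHLH) transcription factor needed for force-transmitting tendons. *Mkx*, an atypical homeodomain factor, sustains collagen production as the tissue matures, and *Tnmd*, which lies downstream of *Scx*, is the classical marker of the mature tenocyte. *Six2* is a homeobox factor best known from kidney progenitors that is also expressed in developing limb tendon and connective tissue. *Pdgfra* encodes a receptor for platelet-derived growth factors on fibroblasts, *Cd34* a sialomucin of endothelium and of the interstitial fibroblasts in the sheaths, and *Ly6c* a small lipid-anchored protein known from monocytes and endothelium. *Tgfbi* encodes a secreted collagen-binding protein with fasciclin domains, named for its induction by transforming growth factor-β (TGF-β).

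Promoter sequence is shown for 4 of the genes, to set the base composition and factor motifs of their start sites beside their values: *Tnmd* as the window poorest in G and C, *Cd34* as the most even gene, and *Six2* and *Pdgfra* for the AP-1 letters that only their windows held among these genes. RefSeq windows of the build GRCr8, from 250 bases before to 50 bases after a gene's start, were at hand for 6 of the 8 genes (7 windows, not *Scx* or *Ly6c*). Of all 33469 windows, the median G+C content was 51.7%. The *Tnmd* window was poor in G and C at 39.0% and held 4 CpG dinucleotides. The *Six2* window was at the other end, at 82.0% (99.5th percentile) with 49 CpG. Those of *Mkx* (70.3% and 68.7%), *Tgfbi* (66.7%) and *Cd34* (66.3%) were also rich in G and C, and that of *Pdgfra* was at 48.0%.

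The windows were searched on both strands for 9 motifs: the E-box CANNTG that bHLH factors bind, its form CAGATG (a subset of the E-box), the AP-1 site TGANTCA, the cAMP response element core TGACGTCA, the SMAD palindrome GTCTAGAC, the EGR1 site GCGGGGGCG, the TEAD core GGAATG, the TATA box TATAAA and the CCAAT box. In the *Six2* window the AP-1 letters began 149 bases before the start and the EGR1 letters 202 bases before it, with an E-box 36 bases after it. In the *Pdgfra* window the AP-1 letters began 35 bases, an E-box 70 bases and a CCAAT box on the opposite strand 221 bases before the start. *Cd34* held an E-box 231 bases before its start that reads CAGATG on the opposite strand. None of the 9 motifs was found in the windows of *Tnmd*, *Mkx* or *Tgfbi*. Of all windows, 7.33% held the AP-1 letters, 2.73% the EGR1 letters, 72.1% an E-box, 16.6% CAGATG, 37.5% a CCAAT box, 14.2% each the TEAD and the TATA letters, 1.83% the cAMP response element core and 0.197% the SMAD palindrome. Such matches describe letters only. The following stretches are given 5′ to 3′ on the strand of the gene, with the matches to motifs in capitals; the whole 250 bases before the start are shown for *Tnmd* (chrX:101350182-101350431, plus strand) and *Cd34* (chr13:109008536-109008785, plus strand), and the 30 bases around single matches for *Six2* (AP-1 at chr6:14727898-14727927 and EGR1 at chr6:14727845-14727874, plus strand) and *Pdgfra* (AP-1 at chr14:33408533-33408562, minus strand).
Tnmd: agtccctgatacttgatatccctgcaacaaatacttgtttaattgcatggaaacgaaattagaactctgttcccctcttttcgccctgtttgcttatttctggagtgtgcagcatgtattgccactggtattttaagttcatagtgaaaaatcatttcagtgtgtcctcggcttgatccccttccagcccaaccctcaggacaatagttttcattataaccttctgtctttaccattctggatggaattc
Cd34: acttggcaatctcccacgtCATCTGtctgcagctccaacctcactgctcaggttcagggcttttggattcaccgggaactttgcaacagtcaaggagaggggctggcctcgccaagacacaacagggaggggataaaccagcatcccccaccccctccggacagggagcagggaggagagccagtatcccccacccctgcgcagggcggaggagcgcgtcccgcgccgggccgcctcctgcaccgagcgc
Six2 AP-1: acagatcgcagTGACTCAggagcggctccg
Six2 EGR1: gcacgcgggcgGCGGGGGCGcggagctgcg
Pdgfra AP-1: gactataacatTGAATCAattacaaaatgc

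The deposited values are FPKM, in which the fragments of a gene are divided by its length and by the depth of the library, so levels can be set beside each other per length of transcript. The whole reads behind them could be recovered for 15589 genes, and each library held 10660131 (NC replicate 2) to 17464752 (0 h p.r. replicate 4) reads. The dissected tissue carried its label's markers in every library: *Col1a1*, the main tendon collagen, lay at 1440 to 3543 FPKM, *Fmod*, a collagen-binding proteoglycan, at 664 to 1483 FPKM, *Comp* at 697 to 2046 FPKM and *Thbs4* at 196 to 521 FPKM.

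Among resting tendons, the 8 genes spanned a wide range of levels. *Tnmd* stood highest at 224 ± 106 FPKM (mean ± SD, n = 4), followed by *Tgfbi* at 161 ± 29.1 and *Cd34* at 132 ± 7.89 FPKM. The ranges of these 3 genes over the NC libraries overlapped, and all 3 means were above those of at least 96.3% of the genes tested. *Scx* (30.1 ± 7.63 FPKM) and *Pdgfra* (21.7 ± 4.67) came next, with ranges that overlapped each other but none of the first 3. *Mkx* (9.78 ± 2.47) and *Ly6c* (9.66 ± 7.40) had nearly the same mean, and *Six2* was lowest at 2.83 ± 1.56 FPKM, the 22.6th percentile of the genes tested.

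**Figure D1:**
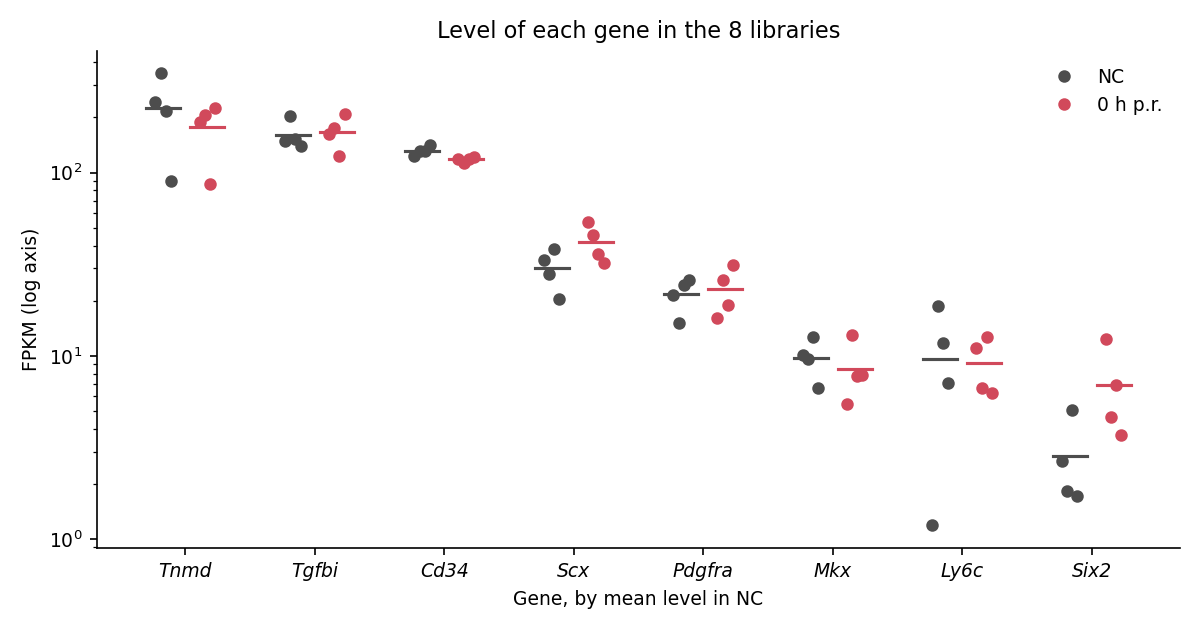
FPKM of each gene (log axis) in the 4 NC (grey) and 4 0 h p.r. (red) libraries; points are libraries, horizontal lines are group means. Only for *Cd34* do the groups not overlap, with 113 to 122 FPKM after running against 123 to 142 FPKM in NC.

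None of the 8 genes changed past both thresholds (limma adjusted p under 0.05 and a fold of at least 2). Over all 13863 genes tested, 2.70% passed them, 1.80% higher and 0.894% lower after running, so a count of 0 among 8 is near that background. The same shares stand beside the counts of calls in the gene lists below. Those lists were chosen with earlier results of these data known, so their counts are descriptions only. *Six2* alone of the 8 had an unadjusted p under 0.05, as did 22.6% of all genes tested, and a fit of the recovered reads with voom in limma also called 0 of the 8. The mean log2 level was higher after running for 5 genes (*Scx*, *Six2*, *Tgfbi*, *Pdgfra*, *Ly6c*) and lower for 3 (*Mkx*, *Tnmd*, *Cd34*). The median log2 fold change was 0.06 over the 8 genes, beside -0.0014 over all genes tested. Of the calls over all genes, 66.8% were higher after running, and 77.8% were when libraries were scaled to the same FPKM sum, 57.0% with array weights and 59.5% without 0 h p.r. replicate 4.

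**Figure D2:**
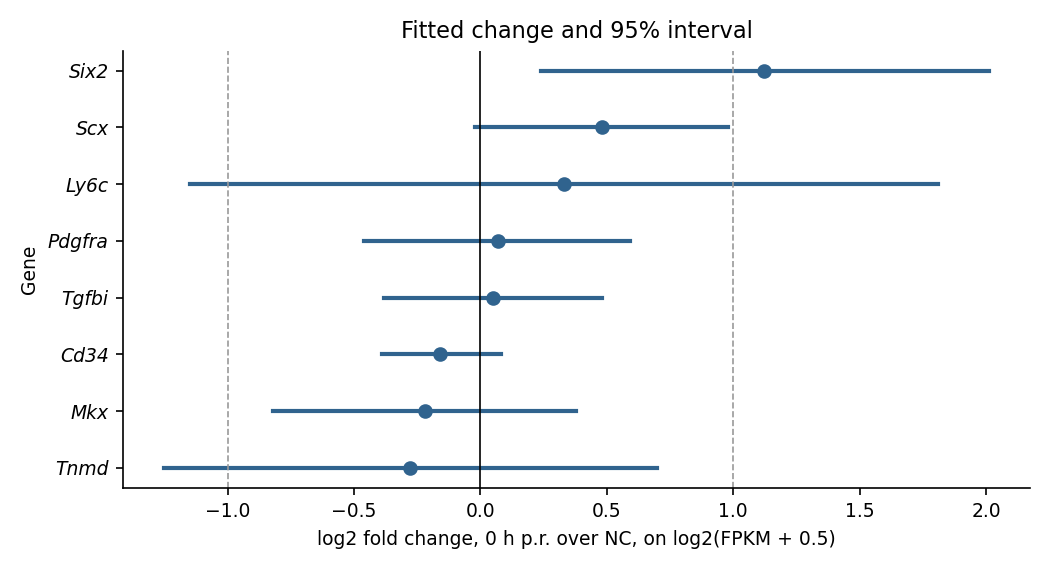
Fitted log2 fold change of each gene, 0 h p.r. over NC on log2(FPKM + 0.5), with its 95% interval from limma; dashed lines mark a fold of 2. The interval of *Six2* (0.24 to 2.01) lies above 0 before adjustment over genes, and the intervals of the other 7 genes include 0.

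*Scx*, which initiates the tendon programme, measured 33.3, 28.0, 38.3 and 20.5 FPKM in NC replicates 1 to 4, and 53.5, 45.5, 36.0 and 32.1 FPKM in 0 h p.r. replicates 1 to 4. The first 2 of the post-run libraries lay above every NC library and the other 2 lay within the NC range. The group means were 30.1 ± 7.63 and 41.8 ± 9.65 FPKM (SD, n = 4 each), with 315 to 936 reads behind each value. The fitted difference was 0.48 on the log2 scale (SE 0.22, 95% interval -0.02 to 0.98, limma adjusted p = 0.245), which did not pass the test. In the RefSeq annotation *Scx* lies within the span of *Bop1*, a ribosome biogenesis gene. *Bop1* was at 11.5 to 13.4 FPKM in NC and at 12.2 to 14.6 FPKM after running, and since the strand setting of the counting was not given in the sources used here, reads shared between both genes cannot be told apart.

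bHLH factors act as pairs, and *Scx* is known to bind DNA with the E proteins *Tcf3*, *Tcf4* and *Tcf12*, while Id proteins, which lack a DNA-binding part, hold E proteins back. Of 10 such partners, regulators and relatives tested, 1 rose and none fell past the thresholds, and their median log2 fold change was -0.16. The gene that rose was *Id4*, from 25.8 ± 4.58 to 55.7 ± 17.3 FPKM (log2 1.06, SE 0.22, limma adjusted p = 0.0281), with no overlap of the groups. The E proteins had log2 differences of -0.13 (*Tcf3*), -0.26 (*Tcf4*) and 0.10 (*Tcf12*), none past the thresholds.

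*Mkx* had 10.1, 9.64, 12.7 and 6.67 FPKM in the NC libraries. After running it had 5.43, 13.0, 7.80 and 7.82 FPKM, so that replicate 1 was the lowest and replicate 2 the highest of all 8 libraries. The means were 9.78 ± 2.47 and 8.51 ± 3.18 FPKM, and the log2 difference was -0.22 (SE 0.26, 95% interval -0.82 to 0.38, limma adjusted p = 0.690). A decrease to 0.568 of the NC level and an increase to 1.30 of it both lie within that interval, and at 96 to 313 reads per library counting error was small beside the spread. *Mkx* belongs to the TALE homeodomain class with the Iroquois, Meis, Pbx and Tgif genes. Of 13 relatives tested, 1 rose, none fell, and the median log2 fold change was 0.17. *Irx3*, an Iroquois patterning factor, rose from 1.73 ± 0.851 to 6.60 ± 3.71 FPKM (log2 1.63, SE 0.39, limma adjusted p = 0.0454), every post-run library being above every NC library.

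*Six2* showed the largest fitted difference of the 8 genes. It was measured at 2.67, 1.83, 5.08 and 1.72 FPKM in NC and at 12.3, 4.65, 6.94 and 3.71 FPKM after running. Of the post-run libraries, 2 lay above all NC libraries, and NC replicate 3 was higher than the other 2, so the groups overlapped. These values rest on few reads, namely 63, 24, 99 and 34 in NC and 217, 112, 118 and 89 after running. The means were 2.83 ± 1.56 FPKM in NC and 6.90 ± 3.85 FPKM after running, a fold of 2.18 on the log2(FPKM + 0.5) scale (95% interval 1.18 to 4.03; log2 1.12, SE 0.39). This did not pass the test, as the limma p was 0.0185 before and 0.131 after adjustment over all genes, and an exact two-sided permutation test over the 70 ways to split the libraries gave p = 0.0857. The study itself lists *Six2* among differentially expressed genes at 0 h p.r., under the processes ossification and connective tissue development. Those lists also hold a matrix protease gene that the study gives as not significant after adjustment. They therefore do not state a call at the thresholds used here. Without 0 h p.r. replicate 1, the highest library, the log2 difference was 0.82. Among other genes of this family and their Eya and Dach cofactors, 8 were tested and none was called in either direction (median log2 fold change 0.05). The largest difference among them was that of *Eya1*, a co-activator of these factors, at 0.70 (SE 0.62, limma adjusted p = 0.565).

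Other transcription factors known from tendon and connective tissue were looked at beside these 3. Of 21 tested, 3 rose and none fell (median log2 fold change 0.09). *Egr1*, an immediate early zinc finger factor that is also known to drive tendon collagen genes, rose from 15.8 ± 6.71 to 84.2 ± 24.8 FPKM (log2 2.44, SE 0.31, limma adjusted p = 0.00486). *Klf4*, a Krüppel-like factor, rose from 131 ± 35.0 to 352 ± 129 FPKM (log2 1.38, limma adjusted p = 0.0368), and *Runx1*, a runt factor, from 6.49 ± 2.28 to 15.1 ± 2.25 FPKM (log2 1.21, limma adjusted p = 0.0244). In all 3 the groups did not overlap, as was so for 8.15% of all genes tested in the higher direction.

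*Tnmd*, the marker of mature tenocytes, was at 242, 348, 218 and 90.5 FPKM in NC and at 189, 207, 87.0 and 225 FPKM after running. A single library of each group, NC replicate 4 and 0 h p.r. replicate 3, stood well below its group at similar levels. The means were 224 ± 106 and 177 ± 61.7 FPKM, and the log2 difference of -0.28 (SE 0.43, 95% interval -1.25 to 0.70) had a limma adjusted p of 0.768. The interval runs from 0.419 to 1.62 of the NC level, although each library held 1488 or more reads of the gene. Of 4 relatives with a BRICHOS domain, none was called and all 4 had a lower mean log2 level after running (median -0.17). The largest difference, -0.40 (SE 0.12, limma adjusted p = 0.0793), was that of *Bricd5*.

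The matrix and surface genes that tenocytes make gave no call either. Of 21 tested, 0 passed the thresholds in limma, 3 had an unadjusted p under 0.05, and 18 had a higher mean log2 level after running (median 0.16). *Cilp*, a cartilage intermediate layer protein also made in tendon, had the largest difference, at 36.9, 33.1, 77.9 and 100 FPKM in NC and 80.2, 82.7, 127 and 336 FPKM after running (log2 1.22, SE 0.51, limma adjusted p = 0.200). The other 2 with an unadjusted p under 0.05 were *Chad*, a leucine-rich matrix protein, at 1342 FPKM in NC and 2461 FPKM after running (log2 0.79, limma adjusted p = 0.197), and *Comp*, at 848 and 1395 FPKM (log2 0.67, limma adjusted p = 0.167), whose groups did not overlap. The highest library of all 3 genes was 0 h p.r. replicate 4 (*Chad* 4132 FPKM, *Comp* 2046 FPKM). Cartilage markers were also highest in that library, at a mean log2 level of 6.26, and their part in these values was not tested. *Col1a1* was at 2380 and 2409 FPKM on average.

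*Tgfbi* held nearly the same mean in both groups. It measured 149, 204, 152 and 140 FPKM in NC and 162, 175, 123 and 210 FPKM after running, with means of 161 ± 29.1 and 168 ± 36.0 FPKM. Post-run libraries were both the lowest and the highest of the 8. The log2 difference was 0.05 (SE 0.19, limma adjusted p = 0.924). Of its relatives with fasciclin domains, *Postn* (periostin, a matricellular protein of loaded connective tissue) fell from 77.7 ± 16.1 to 32.0 ± 9.49 FPKM (log2 -1.28, SE 0.23, limma adjusted p = 0.0162), and *Stab1*, the other one tested, was not called. Of 15 TGF-β ligands, receptors and feedback genes tested, 3 rose and none fell (median 0.23), beside 2.70% called over all genes tested. Among those that rose were *Skil*, a repressor of SMAD complexes, from 8.59 to 20.6 FPKM (log2 1.26, SE 0.25, limma adjusted p = 0.0256), and *Smad3*, which transmits the signal, from 13.1 to 28.3 FPKM (log2 1.09, SE 0.14, limma adjusted p = 0.00427).

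*Pdgfra* was at 21.5, 15.2, 24.4 and 25.8 FPKM in NC and at 16.1, 26.0, 19.0 and 31.2 FPKM after running. The libraries of both groups were interspersed, with means of 21.7 ± 4.67 and 23.1 ± 6.82 FPKM. The log2 difference was 0.07 (SE 0.23, limma adjusted p = 0.912). Of 6 other genes for platelet-derived growth factors and their receptors, none was called (median log2 fold change -0.11), and the largest difference was that of the ligand *Pdgfd*, at -0.41 (SE 0.15, limma adjusted p = 0.150). Markers of interstitial fibroblasts, which share *Pdgfra* and *Cd34*, gave 2 calls among 15 tested, both higher, with a median of -0.07. These were *Gfpt2*, an enzyme of hexosamine synthesis (26.3 ± 17.6 to 91.6 ± 41.9 FPKM, log2 1.89, SE 0.44, limma adjusted p = 0.0418), and *Procr*, the protein C receptor (35.5 ± 9.67 to 79.6 ± 24.8 FPKM, log2 1.14, SE 0.27, limma adjusted p = 0.0431).

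*Cd34* was the most even of the 8 genes. It was at 123, 131, 131 and 142 FPKM in NC and at 119, 113, 119 and 122 FPKM after running. Every post-run library was below every NC library, as was so for 7.47% of all genes tested in this direction. The step was small: means of 132 ± 7.89 and 118 ± 3.74 FPKM, a log2 difference of -0.16 (SE 0.10, 95% interval -0.39 to 0.08) and a limma adjusted p of 0.425. The exact two-sided permutation test gave an unadjusted p = 0.0286, the smallest it can give with 4 against 4. Groups that do not overlap always give this value, so it adds nothing to the lack of overlap. Among 4 genes of the CD34 family and of its ligands and like surface proteins, *Selp* (P-selectin, an adhesion molecule of activated endothelium and platelets) rose from 8.27 ± 0.967 to 34.7 ± 14.4 FPKM (log2 1.88, SE 0.33, limma adjusted p = 0.0152), and the other 3 were not called (median of the 4, 0.35). Of 7 other surface markers used for tendon progenitor cells, 1 was called (median 0.04). That was *Cd44*, the hyaluronan receptor, which rose from 17.6 ± 2.36 to 39.5 ± 8.36 FPKM (log2 1.13, SE 0.17, limma adjusted p = 0.00817).

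*Ly6c* was the most variable of the 8 genes in NC, though not after running. Its NC libraries measured 1.19, 18.7, 11.7 and 7.09 FPKM, and its post-run libraries 11.1, 6.66, 12.7 and 6.23 FPKM. The post-run values all lay inside the NC range, which itself was 15.8-fold wide, and NC replicate 1 rested on 18 reads. The means were 9.66 ± 7.40 and 9.18 ± 3.23 FPKM, while on the log2 scale the difference was 0.33 (SE 0.66, limma adjusted p = 0.830), so the direction differs between the scales. Ly6 genes lie in a cluster of close relatives, and how the counting treated reads that fit several of them is not given in the sources used here, so this level is uncertain. Of 10 relatives of the Ly6 and urokinase receptor family tested, 1 rose and 1 fell (median -0.17). *Plaur*, the urokinase receptor, rose from 9.12 ± 2.34 to 44.2 ± 15.6 FPKM (log2 2.17, SE 0.29, limma adjusted p = 0.00518), and *Gpihbp1*, which carries lipoprotein lipase on capillaries, fell from 40.8 ± 12.5 to 11.0 ± 1.82 FPKM (log2 -1.80, SE 0.23, limma adjusted p = 0.00418).

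The spread between libraries differed among the 8 genes far more than read counting would give. In NC, the coefficient of variation (CV, the SD as a percentage of the mean) ran from 5.98% for *Cd34* to 76.6% for *Ly6c*, and after running from 3.16% for *Cd34* to 55.7% for *Six2*. The CV of *Cd34* was lower than that of all but 5.64% of the genes tested in NC and all but 1.51% after running, and the reads alone would give 1.74% and 1.76%. That of *Six2* was above 94.0% of the genes in NC and above 92.1% after running, with 55.4% in NC, where the reads alone would give 13.5%. *Tnmd* had a CV of 47.1% in NC, above 90.7% of the genes, against 1.56% from the reads alone. Single libraries decide much of these values (a check chosen after seeing the data): *Six2* fell to 32.5% after running without replicate 1 and to 25.1% in NC without replicate 3, *Tnmd* to 25.7% in NC without replicate 4 and to 8.71% after running without replicate 3, and *Ly6c* to 46.8% in NC without replicate 1. *Mkx* fell to 19.6% after running without replicate 2, and the CV of *Cd34* stayed between 1.15% and 7.30%. With 4 libraries a group, the order of the more variable genes is therefore not settled, and for *Tgfbi* in NC the CV without replicate 2 was 4.23%, within the range of *Cd34*.

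**Figure D3:**
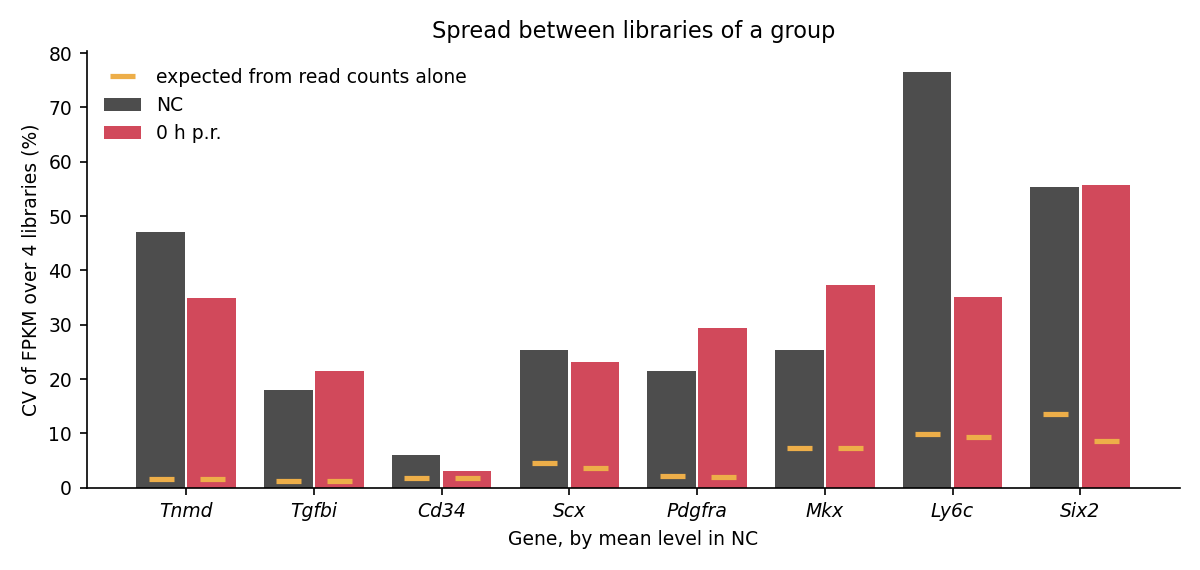
CV of FPKM (percent) over the 4 libraries of each group, with genes ordered by their NC level; bars are NC (grey) and 0 h p.r. (red), and the yellow marks give the CV expected from read counts alone. *Cd34* is the most even gene in both groups (5.98% and 3.16%) and *Ly6c* the least even in NC (76.6%).

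The genes were then compared with each other across libraries, on log2(FPKM + 0.5), over all 28 pairs. *Scx* and *Six2* had the highest correlation. Pearson's r was 0.87 (exact permutation p = 0.00565, adjusted over the pairs 0.158) and Spearman's rho 0.88 (exact permutation p = 0.00724, adjusted 0.203), over 8 libraries. Without the 2 libraries farthest from the median of *Scx* (0 h p.r. replicate 1 and NC replicate 4) r was 0.69, and over deviations from the group means it was 0.78. *Scx* and *Cd34* were opposed, with r = -0.81 (exact permutation p = 0.0163, adjusted 0.219), rho = -0.74 (exact permutation p = 0.0458, adjusted 0.537), r = -0.65 without the same 2 libraries and -0.67 within groups. *Tnmd* and *Tgfbi* gave r = 0.78 (exact permutation p = 0.0235, adjusted 0.219) and rho = 0.64 (exact permutation p = 0.0962, adjusted 0.539), with 0.47 without 0 h p.r. replicate 3 and NC replicate 4 and 0.82 within groups. No pair passed an adjusted p of 0.05. *Scx* and *Tnmd* gave r = 0.24 (exact permutation p = 0.562, adjusted 0.924) and rho = -0.26 (exact permutation p = 0.536, adjusted 0.941). For this pair r became -0.39 without the 2 farthest libraries and was 0.49 within groups.

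**Figure D4:**
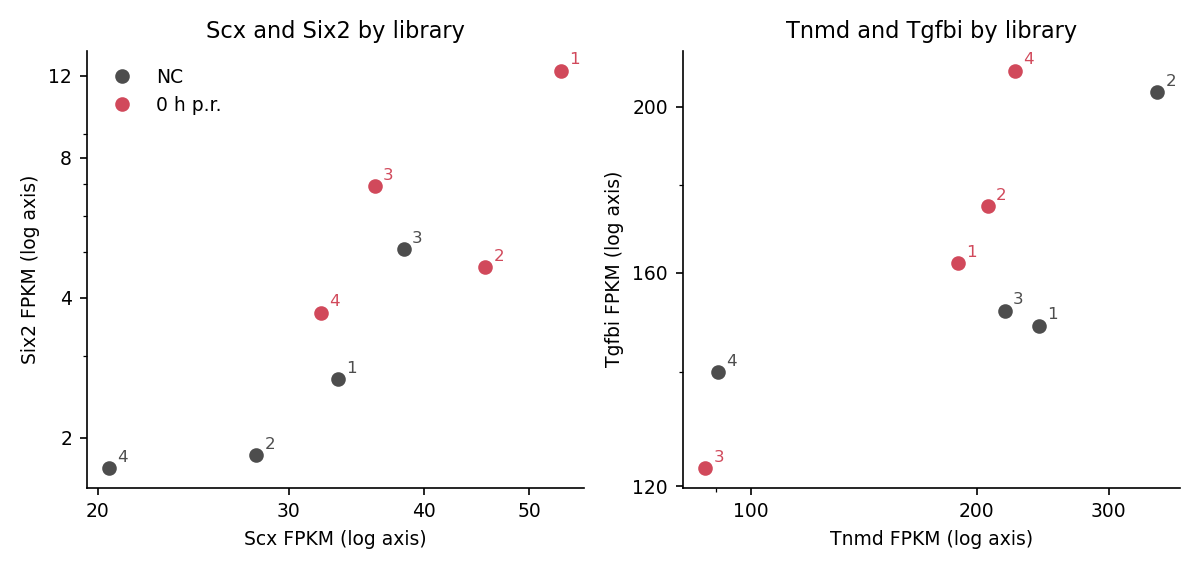
Left, FPKM of *Scx* against *Six2*; right, FPKM of *Tnmd* against *Tgfbi* (all axes log); each point is a library with its replicate number, NC in grey and 0 h p.r. in red. 0 h p.r. replicate 1 is highest in both *Scx* (53.5 FPKM) and *Six2* (12.3 FPKM), and 0 h p.r. replicate 3 is lowest in both *Tnmd* (87.0 FPKM) and *Tgfbi* (123 FPKM).

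The ratio of 2 genes within a library does not depend on how libraries are scaled, and was computed for the 28 pairs after the levels had been seen. *Scx* over *Mkx* was 3.30, 2.91, 3.02 and 3.07 in the NC libraries and 9.86, 3.51, 4.61 and 4.10 in the post-run libraries. This was the only pair whose groups did not overlap. The mean log2 ratio was 1.62 ± 0.08 in NC and 2.34 ± 0.66 after running (SD, n = 4 each), a difference of 0.72 with an exact two-sided permutation p of 0.0286, the smallest possible, and 0.480 after adjustment over the 28 pairs. Much of the difference came from 0 h p.r. replicate 1, without which it was 0.40 (chosen after seeing the data), and without any other single library it was 0.69 to 0.90. The NC ratios were almost constant while *Scx* itself ranged 1.87-fold over the same libraries. *Scx* over *Tnmd* differed by 0.76 on the log2 scale (exact permutation p = 0.143, not passing adjustment) and *Mkx* over *Tnmd* by 0.04 (exact permutation p = 0.886, adjusted 0.954), both with overlapping groups.

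**Figure D5:**
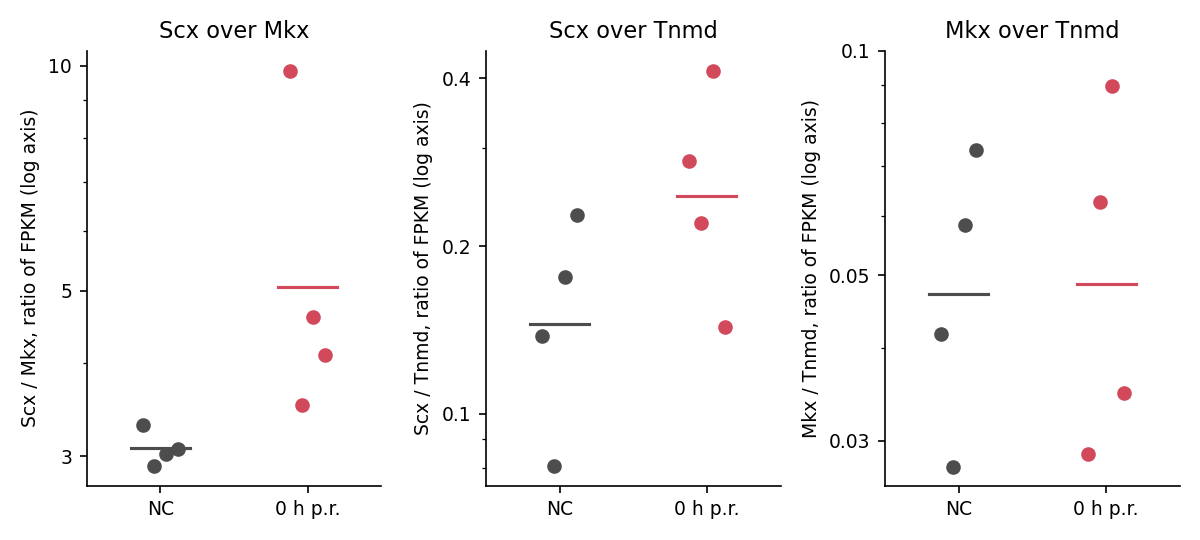
Ratio of FPKM within each library (log axes) for *Scx* over *Mkx*, *Scx* over *Tnmd* and *Mkx* over *Tnmd*, in NC (grey) and 0 h p.r. (red); points are libraries, lines are geometric means. *Scx* over *Mkx* is 2.91 to 3.30 in NC and 3.51 to 9.86 after running, and the other 2 ratios overlap between the groups.

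Dissected tendon can hold other tissue, so the marker lists of other cell types were summed in each library as a mean log2 level. Adipocyte markers moved with the groups: all 10 had a lower mean log2 level after running, 6 were called, and their level was 7.29 to 8.56 in NC and 5.23 to 6.87 after running. *Six2* followed this level with r = -0.79 over the 8 libraries (exact permutation p = 0.0188, adjusted over 40 pairs 0.344) and rho = -0.71 (exact permutation p = 0.0576, adjusted 0.278), with -0.53 within groups and -0.69 without the 2 libraries farthest from the median of the markers. Bone markers lay at 1.01 to 2.59 in NC and 2.64 to 4.14 after running, and cartilage markers at 0.84 to 4.31 and 4.26 to 6.26, with *Col10a1* at 0 in NC replicate 2. Skeletal muscle markers did not separate the groups but ranged 29.5-fold between post-run libraries, from 6.24 in replicate 4 to 11.12 in replicate 1, the library with the highest *Scx* and *Six2* and the lowest *Mkx*. With the muscle level as a covariate, the log2 difference of *Six2* was 1.04 (limma adjusted p = 0.0667). Endothelial markers were level (5.92 to 6.11 and 5.77 to 6.18), and *Tgfbi* ran opposite to them at r = -0.82 (exact permutation p = 0.0133, adjusted 0.344), rho = -0.81 (exact permutation p = 0.0218, adjusted 0.278) and -0.52 without the 2 farthest libraries. *Pdgfra* was opposed to the muscle markers at r = -0.73 (exact permutation p = 0.0306, adjusted 0.344) and rho = -0.67 (exact permutation p = 0.0831, adjusted 0.302). Within groups r was -0.75, and without the 2 farthest libraries it was -0.29. With the cartilage markers *Pdgfra* gave r = 0.69 (exact permutation p = 0.0492, adjusted 0.344), rho = 0.69 (exact permutation p = 0.0694, adjusted 0.278) and 0.88 within groups, but 0.12 without NC replicate 2 and 0 h p.r. replicate 4. Macrophage markers were at 3.67 to 4.46 in NC and 3.48 to 4.41 after running. *Ly6c* ran opposite to them, with r = -0.66 (exact permutation p = 0.0420, adjusted 0.344), rho = -0.76 (exact permutation p = 0.0368, adjusted 0.278) and -0.65 within groups. So did *Six2*, with r = -0.71 (exact permutation p = 0.0516, adjusted 0.344), rho = -0.74 (exact permutation p = 0.0458, adjusted 0.278) and -0.78 within groups, but with r = -0.26 without the 2 libraries farthest from the median of the markers (0 h p.r. replicates 1 and 3). *Tnmd* ran opposite to the endothelial markers, with r = -0.69 (exact permutation p = 0.0630, adjusted 0.360) and rho = -0.74 (exact permutation p = 0.0458, adjusted 0.278). For that pair r was -0.71 within groups and -0.69 without the 2 farthest libraries. *Tnmd* with the adipocyte markers and *Ly6c* with the muscle markers each gave rho = 0.74 (exact permutation p = 0.0458, adjusted 0.278), with r of 0.37 and 0.50. None of the 40 pairs of a gene and a marker list passed an adjusted p of 0.05. Of 8 markers of T and B cells only *Cd4* had a row that could be tested. The called adipocyte genes with the largest differences were *Cidec* (log2 -2.41), *Lep* (-2.37), *Retn* (-2.14), *Cfd* (-1.70) and *Adipoq* (-1.69). Of the tested markers of endothelium (9), macrophages (9), skeletal muscle (9), mural cells (7), Schwann cells (6), bone (5), cartilage (4) and erythroid cells (4), none was called. The largest log2 differences in these lists were 0.75 for *Egfl7*, -1.09 for *Cd163*, -3.42 for *Myh7*, -0.85 for *Kcnj8*, -0.77 for *S100b*, 2.24 for *Bglap*, 2.75 for *Col2a1* and -0.73 for *Hba-a3*. *Egfl7*, *Myh7* and *Kcnj8* went against most of their lists. Of endothelial markers 2 were higher and 7 lower (median -0.04), of muscle markers 7 and 2 (0.91), and of mural cell markers 5 and 2 (0.21). The genes named for the remaining lists went with most of theirs. Apart from the muscle covariate, the part of these tissues in the values of the 8 genes was not tested.

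Finally, the genes whose pattern over the 8 libraries was most like that of each gene were listed by Pearson's r of log2(FPKM + 0.5), as a description. *Tnmd* was most like *Sparc*, a collagen-binding matrix protein, with r = 0.986, followed by *Serpinb7* (0.967) and *Il11ra1* (0.963). *Sparc* was at 6318, 7591, 6433 and 4283 FPKM in NC and at 6022, 5646, 4191 and 6250 FPKM after running, so its lowest libraries were the same NC replicate 4 and 0 h p.r. replicate 3 as for *Tnmd*. *Scx* was most like *Ing2* and *Rtf1* (0.944 each), *Six2* like *Lsm12* (0.983) and *Relt* (0.967), and *Mkx* like *Kif3a* (0.917), *Fads2* (0.912) and *Psip1* (0.880). The nearest to *Tgfbi* were *Ica1* (0.972), *Tbc1d25* (0.964) and *Sec22a* (0.953), and to *Pdgfra* *Dnm1* (0.972), *Notch2* (0.970) and *Pld2* (0.965). *Cd34* was nearest to *Afap1l2* (0.959), *Gpsm3* (0.957) and *Rgs3* (0.951), and *Ly6c* to *Pcnp* (0.945), *Ccdc130* (0.895) and *Eif1ax* (0.876). Each is among the 3 highest values over all genes tested.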

How the data were processed

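Polyadenylated RNA of Achilles tendons was sequenced from 8 stranded libraries. According to the submitters' processing notes, HISAT2 2.1.0, featureCounts 1.6.3 and DESeq2 1.30.1 were used with the rat build Rnor_6.0; the strand setting of the counting is not given in the sources used here. The authors deposited FPKM values per gene and library, scaled for depth and transcript length, and 3 columns of their own comparison (fold change and p-values) that were not used. The table gives no positions, and coordinates in that build are not used here.

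The test took in 13863 of 15590 genes, those reaching 0.5 FPKM in 4 or more libraries. The deposited FPKM values were taken as log2(FPKM + 0.5), and the difference between groups was fitted by limma 3.58.1 (R 4.3.3; lmFit, then trended eBayes; two-sided, no covariate), adjusting p over all genes by Benjamini-Hochberg. Calls needed both an adjusted p under 0.05 and a 2-fold difference. Folds on this scale understate the change of low genes. Because FPKM are not counts, whole reads were recovered from the steps between values (15589 genes, 99.99%, within 0.02 of a read), and served as depth and for a voom fit. Replicates of a group were compared for near-identity, and the lowest chi-square per gene over their pairs was 28.0, far above sampling noise. The fit was tested on simulated data.

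Single values were compared by exact permutation over the 70 assignments. The 8 genes, the gene lists and the motifs were chosen with earlier results of these data known. Every one of the 8 genes is named, and from each list the called genes (at most 5 with the largest change) and the gene with the largest change; *Tcf3*, *Tcf4*, *Tcf12*, *Stab1*, *Cd4*, *Col10a1*, *Bop1*, *Chad* and the tenocyte markers *Col1a1*, *Fmod*, *Comp* and *Thbs4* were named in addition, after their values had been seen. A few genes that this rule names are not reported here. Alternatives were other pseudocounts, filters, scalings and weights, a replicate block, a muscle covariate, leaving out each library, and, added after seeing the data, leaving out NC replicate 2 with 0 h p.r. replicate 1 and the within-library ratios, that of *Scx* over *Mkx* also without each library, as were the CVs.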

Additional observations from a re-analysis of the deposited data

Results flagged for a closer look

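The mean log2 level of the Schwann cell markers in 0 h p.r. replicate 2 was 4.37, far above the other 3 post-run libraries (3.85 to 3.93), while the NC libraries lay at 3.96 to 4.39. The gap to the nearest library made up 0.833 of the range of the group, above Dixon's 95% critical value for 4 samples. This was 1 of 34 groups of 4 libraries examined, and chance alone gives about 1 in 20. None of the 8 genes had such a library.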

How the results depend on the processing

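None of the 8 genes was called in any of the 22 alternatives. The number of all genes called, 374, became 171 with libraries scaled to the same FPKM sum, 793 at an adjusted p alone, 209 without NC replicate 2 and 0 h p.r. replicate 1 (chosen after seeing the data), and 195 (without 0 h p.r. replicate 2) to 516 (without 0 h p.r. replicate 4) on leaving out each library in turn. It was also lower by over 1.5 times with NC replicate 1 left out (217) or 0 h p.r. replicate 3 left out (201). With the replicate number as a block, 212 genes were called (83.5% higher after running). Over all genes tested, deviations from the group means had correlations of -0.141, -0.071, 0.072 and 0.006 between same-numbered libraries. Between differently numbered libraries they ran from -0.249 to 0.234. These values show no pairing by number but cannot exclude it, as differences in tissue content can hide it. *Scx* stayed between 0.31 and 0.60 (log2), with adjusted p of 0.143 to 0.489, *Six2* between 0.68 and 1.41, with 0.0667 to 0.321, *Mkx* between -0.44 and -0.04, and *Cd34* between -0.25 and -0.12, with 0.205 to 0.845. Small differences changed sign, and the cause was not tested: *Tgfbi* was -0.026 with quantile normalization and -0.071 to 0.19 leaving out each library, *Pdgfra* -0.016 with quantile normalization, -0.051 with array weights and -0.091 to 0.22, *Ly6c* -0.38 (without NC replicate 1) to 0.79 (without NC replicate 2), and *Tnmd* -0.66 (without NC replicate 4) to 0.031 (without 0 h p.r. replicate 3). The smallest single values rest on 24 reads (*Six2*) and 18 reads (*Ly6c*), but the spread between libraries of both genes was well above counting error.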
